A study of Mus musculus with 16 samples.

Results

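The genes Gfi1, Bcl6, Id1, Id2, Id3, Hes1 and Zeb2 encode nuclear proteins that hold down transcription, and their mRNA was measured in mouse bone marrow-derived macrophages (BMDMs) under tumor-conditioned medium and kinase inhibitors. These 7 genes of the 55487 in the counts table were selected on their log2 fold changes in CM + Rux against CM, where Gfi1 rose and Id1 fell when ruxolitinib was added to tumor medium, so for these 7 genes that contrast is described below without a test. Of the 7, 6 were among the 12372 genes tested, and Hes1 was not.

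BMDMs are macrophages grown in culture from bone marrow, here from wild-type Balb/c mice aged 8 weeks. 4T1 is a mouse mammary tumor cell line, and its conditioned medium (CM) carries the factors that the cells release. Ruxolitinib (Rux) is a JAK1 and JAK2 inhibitor, and IKK-16 blocks the IKK kinases upstream of NF-κB. The 16 samples form 6 groups: DMEM, the medium without tumor factors (n = 2), DMEM + Rux (n = 3), CM (n = 3), CM + Rux with a label of 4 h (n = 3), CM + Rux with a label of 2 h (n = 2), and CM + Rux + IKK-16 (n = 3). The concentrations stated for CM were 0.5 µM ruxolitinib and 0.8 µM IKK-16, and those for DMEM + Rux, like the meaning of the 2 h label, are not given in the sources used here. The labels do not say whether replicate numbers stand for separate mice, so p-values measure the spread between these samples only.

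GFI1 and BCL6 are zinc-finger proteins that bind DNA and recruit enzymes that close chromatin. GFI1 works with the demethylase KDM1A (LSD1) and is best known for steering blood progenitors towards granulocytes and away from the monocyte fate, whereas BCL6 works with BCOR and NCOR1 and is known in macrophages for damping inflammatory genes. The ID proteins have a helix-loop-helix but no DNA-binding region, so they act by holding E proteins away from DNA, and their genes are classic targets of BMP and SMAD signals. HES1 is a target of Notch that represses with TLE proteins, and ZEB2 is a zinc-finger and homeodomain protein needed for the identity of tissue macrophages.

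The libraries held 18449388 to 46215853 counted fragments each. All 8 macrophage markers were above 1 CPM (counts scaled to a common library size) in every sample, with a summed level of 40100 to 57200 CPM. None of the 10 markers of neutrophils and granulocyte progenitors, the cells in which Gfi1 is best known, passed 1 CPM in any sample, and their summed level was 0.0552 to 0.865 CPM. The 6 markers of epithelial cells, the lineage of 4T1, summed to at most 1.45 CPM. In bulk RNA, fewer cells of a type and less RNA per cell cannot be told apart.

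The promoters of Gfi1 and Bcl6 are shown first because the levels of both genes lay lower with IKK-16 than without it, though letters of the same kinds also stand in windows of genes that were not called there. RefSeq promoter windows of GRCm38.p6, from 250 bases before to 50 bases after each start, were found for 5 of the 7 genes, with 10 windows in all. They were searched on both strands for an NF-κB-like run (GGG and CC with any 5 bases between), a STAT-like pair (TTCNNNGAA), the BCL6-like run TTCCTNGAA, which is also a STAT-like pair, and the GFI1 core AATC. Of all 32851 windows, 50.8% held the NF-κB-like run, 8.3% the STAT-like pair, 1.59% the BCL6-like run and 73.1% the GFI1 core. In the sequences below, read 5′ to 3′ along the gene, capitals mark NF-κB-like runs in Gfi1, and in Bcl6 the first 3 runs in capitals are STAT-like and the last 2 NF-κB-like.
Gfi1, chr5:107725806-107725925, minus strand: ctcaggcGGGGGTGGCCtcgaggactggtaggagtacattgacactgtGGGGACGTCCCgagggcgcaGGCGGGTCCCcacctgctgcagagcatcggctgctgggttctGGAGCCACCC
Bcl6, second start, chr16:23981324-23981458, minus strand: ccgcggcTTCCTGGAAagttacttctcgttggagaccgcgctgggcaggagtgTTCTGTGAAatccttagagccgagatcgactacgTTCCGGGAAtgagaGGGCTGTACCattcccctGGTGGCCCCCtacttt

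The Gfi1 stretch ends at the base before the first RefSeq start and lies in an intron of the longer Gfi1 transcript of GENCODE M21, overlapped on the other strand by A430072P03Rik. Its window held 5 NF-κB-like runs, 2 of which overlap, and no STAT-like pair, and 3.16% of all windows held 5 or more. The window of the other Gfi1 start held neither. The Bcl6 stretch lies in an intron in GENCODE, with no exon across it. Its window held 3 STAT-like pairs, which 11 of the 32851 windows (0.0335%) reached, and the first of them carries the BCL6-like letters. The window of the first Bcl6 start held 1 STAT-like pair and 1 NF-κB-like run. The Id3 window held 4 NF-κB-like runs (6.65% of windows held 4 or more), and the Id2 window held neither. Of the 4 Zeb2 windows, those of the second and the third start, which overlap, held 1 STAT-like pair each and that of the fourth start 1 NF-κB-like run, and Zeb2 was called in no comparison tested. The numbers of matches were chosen after the counts were seen, and a match of letters is a description and not a bound site.

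**Figure D1:**
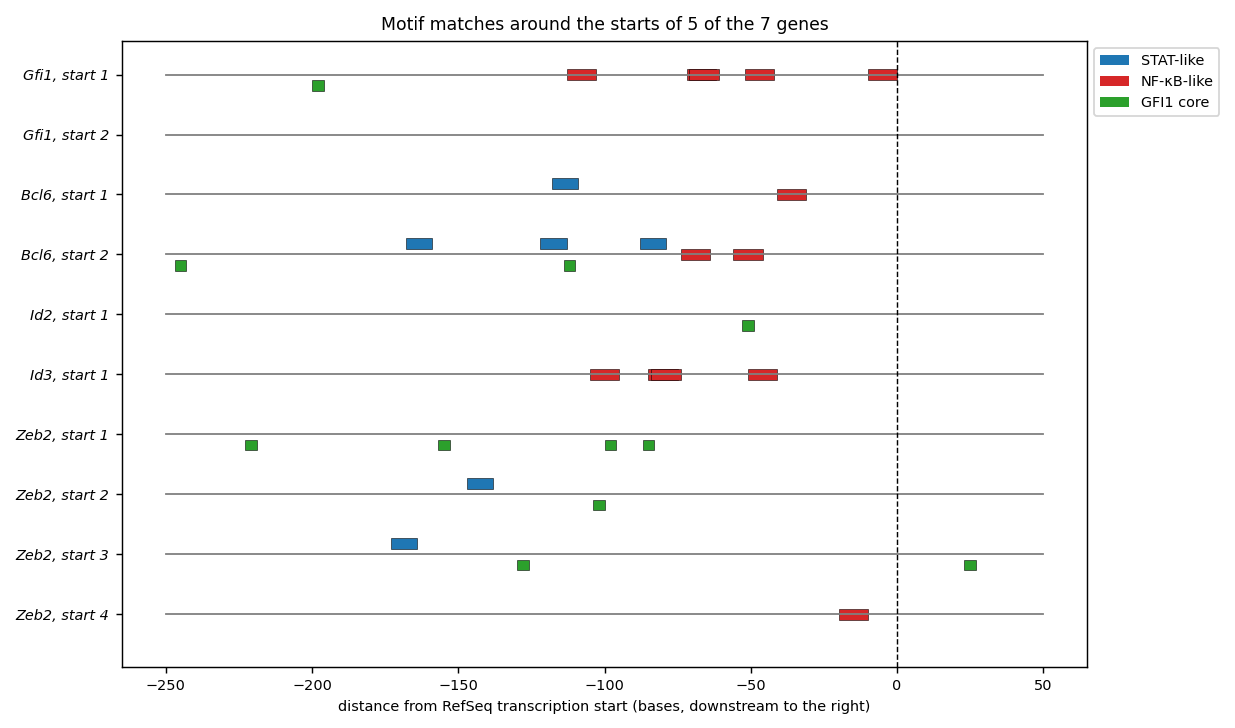
Positions of motif matches in the promoter windows of Gfi1, Bcl6, Id2, Id3 and Zeb2, as distance in bases from each RefSeq start. The 5 NF-κB-like runs of Gfi1 lie upstream of its first start, and the 3 STAT-like pairs of Bcl6 lie upstream of its second start, while Id3 and Zeb2, not called with IKK-16, hold matches too.

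Gfi1 (ENSMUSG00000029275, chr5:107716657-107726036, minus strand of GRCm38) was almost silent without tumor medium and was a low gene even at its height. DMEM samples held 0.0591 and 0.123 CPM, from 2 and 3 counts, and DMEM + Rux samples held 0.0462, 0.0447 and 0.194 CPM. CM samples held 1.001, 1.16 and 0.692 CPM. In CM + Rux the level was 7.34, 3.54 and 5.50 CPM, and in the 2 h group it was 2.87 and 4.73 CPM. With IKK-16 added it was 0.490, 0.918 and 0.932 CPM. Every sample of CM + Rux and of the 2 h group thus lay above every sample of the other 4 groups, while CM and CM + Rux + IKK-16 overlapped, as did the CM + Rux and 2 h groups and the DMEM groups. Per kilobase of exon, 27.4% of the tested genes lay below Gfi1 in CM + Rux, and 0.744% in DMEM.

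**Figure D2:**
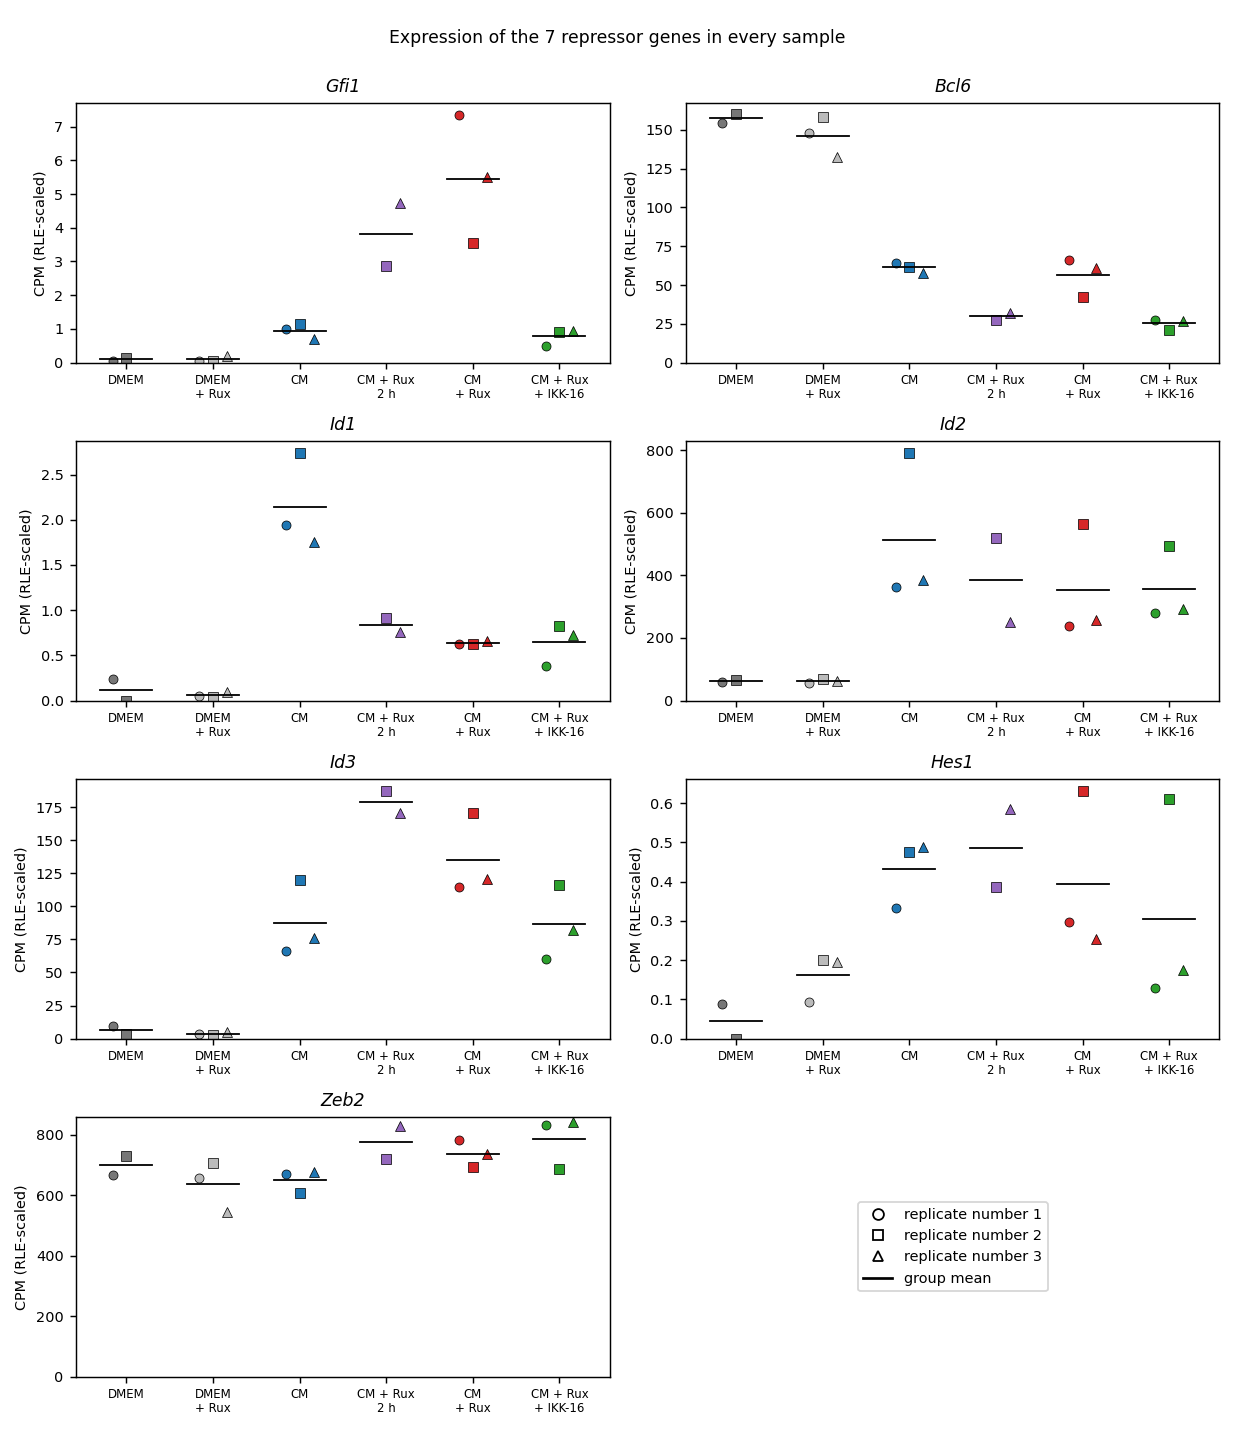
CPM of each of the 7 genes in each of the 16 samples, with 1 panel per gene, symbols by replicate number and a line at each group mean. Gfi1 has its highest mean in CM + Rux (3.54 to 7.34 CPM) and Bcl6 in DMEM (155 and 160 CPM), Id2 and Id3 lie higher in the 4 CM groups than in both DMEM groups, and Zeb2 spans 545 to 843 CPM over all samples.

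In the contrast that chose the genes, Gfi1 had a log2 fold change of 2.50 for CM + Rux against CM, and the groups did not overlap. By that measure it ranked 3 among the 12372 genes tested, after Csf2 (3.76) and Inava (2.56), which are named here only for their rank and after their values were seen. It was thus the largest rise among the 7 genes and not among all. Id1 had a log2 fold change of -1.76, Id2 of -0.54, Bcl6 of -0.12, Zeb2 of 0.18 and Id3 of 0.62. Id2, Bcl6 and Id3 overlapped between the groups. Within the pairs of the same replicate number, Id2 was 1.41 to 1.53 times lower in CM + Rux and Id3 was 1.73, 1.42 and 1.59 times higher. Zeb2 was 1.17, 1.14 and 1.09 times higher, so Id2, Id3 and Zeb2 each moved 1 way in all 3 pairs, while Bcl6 did not. Over all genes, 3.33% were called in this contrast, 1.2% higher and 2.13% lower. A gene counts as called when its adjusted p-value is under 0.05 and its log2 fold change passes 0.5 or -0.5.

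Adding IKK-16 to CM + Rux lowered Bcl6, by 1.16 on the log2 scale (SE 0.15, adjusted p = 0.000309, edgeR quasi-likelihood test), where 7.74% of all genes tested were called, 4.07% higher and 3.66% lower. Within the pairs Bcl6 was 2.39, 2.02 and 2.24 times lower, and all 3 samples with IKK-16 lay below all 3 without. Id3 was 1.90, 1.47 and 1.46 times lower within the pairs but did not pass the test, and neither did Id2 or Zeb2. The pairs of Id1, Id2 and Zeb2 did not all move 1 way. Id1 is given here without a test, because it was chosen for its fall in these CM + Rux samples. Gfi1 is given here as a description without a test, because it was chosen for its high level in these CM + Rux samples and, among the groups compared, passed the filter on low counts only through them. Its log2 fold change was -2.81, and its level was 15.0, 3.85 and 5.90 times lower within the pairs.

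The level of Gfi1 against DMEM is best read as a ratio of counts, because DMEM held 5 counts in all. CM held 74 counts, 11.3 times the DMEM level once scaled (95% interval 4.64 to 35.9), the 2 h group 40.4 times (17.0 to 126), CM + Rux 62.5 times (26.6 to 193) and CM + Rux + IKK-16 8.92 times (3.67 to 28.2). These intervals cover counting error only. The rise passed the test in CM against DMEM (adjusted p = 0.000687) and with both inhibitors (adjusted p = 0.00209). CM + Rux against DMEM was not tested. Both tests share the same DMEM samples. Before scaling, Gfi1 was above 1 CPM in 0 of 2 samples of DMEM, 1 of 3 of CM, 2 of 2 of the 2 h group and 0 of 3 with IKK-16. It thus entered the tests of CM and of both inhibitors with the help of other groups. In the 2 h comparison it passed the filter, among the groups compared, only through the 2 h samples. This is the limit given above for IKK-16 against CM + Rux, so the 2 h value is a description without a test. The summed level of the 6 dendritic cell markers moved in the same order as Gfi1 in part, at 1.51 to 2.28 CPM in DMEM, 4.45 to 7.01 in CM, 7.28 to 11.1 in CM + Rux, 13.6 to 17.2 in the 2 h group and 3.61 to 5.23 with IKK-16. It was carried by Ccr7 and Zbtb46, while Flt3, Xcr1 and Clec9a stayed at or below 0.246 CPM. Siglech, with at most 20 counts in a sample, held 0.03 and 0.20 CPM in DMEM and 0.22 to 0.41 in CM. It held 0.41 and 0.55 CPM in the 2 h group, 0.10 to 0.24 in CM + Rux and 0.10 to 0.28 with IKK-16. The part of the summed level in the result was not tested.

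Bcl6 (ENSMUSG00000022508, chr16:23965052-23988852, minus strand) was the gene of the 7 that tumor medium lowered. It stood at 155 and 160 CPM in DMEM and at 148, 158 and 133 CPM in DMEM + Rux. CM samples held 64.4, 61.9 and 57.7 CPM, and CM + Rux samples 66.2, 42.1 and 60.7 CPM. The lowest levels were in the 2 h group, at 27.7 and 32.0 CPM, and with IKK-16, at 27.7, 20.8 and 27.1 CPM. Distinct tiers of level can be read from this order, DMEM with or without ruxolitinib, CM with or without ruxolitinib, and the 2 h and IKK-16 groups, and the tiers did not overlap. The log2 fold change was -1.36 in CM against DMEM (SE 0.16, adjusted p = 6.05e-06), -2.40 in the 2 h group (adjusted p = 2.52e-07) and -2.64 with both inhibitors (adjusted p = 4.02e-08), a level 6.25-fold lower. In the last of these 1.1% of tested genes had a lower fold change.

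BCL6 is best known in germinal center B cells. The summed level of the 6 B cell markers was also highest in both DMEM groups, at 80.2 and 144 CPM in DMEM and 88.0 to 141 CPM in DMEM + Rux. It was 10.6 to 14.2 CPM in CM and 55.7 to 71.4 CPM in the 2 h group. Nearly all of this sum was Ighm. The defining markers Pax5 and Ms4a1 were at 0 in 16 and 12 of the 16 samples, and Ms4a1 held at most 2 counts elsewhere. The sum was 12.2 to 15.5 CPM in CM + Rux and 11.9 to 15.6 CPM with IKK-16, and its part in the result was not tested.

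Id1 (ENSMUSG00000042745, chr2:152736251-152737410, plus strand) was highest in CM. The CM samples held 1.95, 2.73 and 1.75 CPM, and no sample of another group reached 1 CPM. CM + Rux samples held 0.620, 0.630 and 0.662 CPM, 2 h samples 0.911 and 0.760 CPM and samples with IKK-16 0.387, 0.826 and 0.728 CPM. DMEM held 8 counts in replicate 1 and 0 in replicate 2, and DMEM + Rux 1, 2 and 3 counts. CM lay above all others, the 3 groups with CM and ruxolitinib overlapped except that both 2 h samples lay above all of CM + Rux, and each of these 3 lay above DMEM. Id1 passed the filter on low counts only through its level in CM, so that it had to differ there, and CM against DMEM is given without a test. The ratio of counts to DMEM was 16.3 in CM (95% interval 8.06 to 38.3), 6.28 in the 2 h group (2.94 to 15.4), 4.61 in CM + Rux (2.20 to 11.1) and 4.61 with both inhibitors (2.21 to 11.1). The adjusted p-value was 0.00366 for the 2 h group and 0.0079 for both inhibitors. Both depend on the DMEM libraries. Without DMEM replicate 2 the adjusted p-values were 0.0176 and 0.0512, so that the last call was lost, and without DMEM replicate 1 no count was left in DMEM. Adding IKK-16 to CM + Rux left a log2 fold change of 0.01 (95% interval -0.86 to 0.89). This is a description, because Id1 was chosen for its fall in the same CM + Rux samples.

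Id2 (ENSMUSG00000020644, chr12:25093799-25097140, minus strand) was the most abundant of the ID genes in every sample. In DMEM it held 60.3 and 64.6 CPM and in DMEM + Rux 57.3, 68.1 and 63.8 CPM. CM samples held 362, 792 and 386 CPM, CM + Rux samples 237, 562 and 257 CPM, 2 h samples 519 and 250.5 CPM, and samples with IKK-16 279, 495 and 293 CPM. All samples with CM lay above all without, and the 4 CM groups overlapped. Replicate 2 was the highest in each of the 4 CM groups. The log2 fold change was 3.04 in CM against DMEM (SE 0.48, adjusted p = 8.77e-05), 2.63 in the 2 h group (adjusted p = 0.000521) and 2.51 with both inhibitors (adjusted p = 0.000534). The call in the 2 h group was kept without its replicate 2 (adjusted p = 0.00769), on a smaller fold change. IKK-16 on top of CM + Rux gave 0.01 (95% interval -0.79 to 0.82, adjusted p = 0.986). In CM, 98.3% of the tested genes lay below Id2 per kilobase of exon.

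Id3 (ENSMUSG00000007872, chr4:136143497-136145755, plus strand) had the steepest rise of the ID genes in the 2 h group. It stood at 9.22 and 3.44 CPM in DMEM and at 3.14, 2.48 and 4.86 CPM in DMEM + Rux. CM samples held 66.5, 120 and 76.2 CPM. CM + Rux samples held 115, 171 and 121 CPM, 2 h samples 187 and 171 CPM, and samples with IKK-16 60.6, 116 and 82.5 CPM. The order of means thus ran from the 2 h group over CM + Rux to CM, and CM overlapped both CM + Rux and the group with IKK-16. The log2 fold change was 3.76 in CM against DMEM (SE 0.43, adjusted p = 5.45e-06), 4.79 in the 2 h group (adjusted p = 1.84e-06) and 3.73 with both inhibitors (adjusted p = 1.01e-05). Without DMEM replicate 1, the DMEM sample with the higher level, these values were 4.67, 5.70 and 4.65. With IKK-16 against CM + Rux it was -0.65 (95% interval -1.33 to 0.02, adjusted p = 0.188), which did not pass. The same value passed with no filter on low counts (adjusted p = 0.0267) and, at -0.73, in the samples numbered 1 and 3 only (adjusted p = 0.0378), an alternative chosen after seeing the data.

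Within the ID family the make-up changed between groups. Per kilobase of exon, Id3 made up 17.1% and 6.75% of the sum of Id1, Id2 and Id3 in DMEM, 4.71% to 9.36% in DMEM + Rux, and 17.0% to 21.0% in CM. It made up 29.2% to 39.7% in CM + Rux and 32.8% and 48.0% in the 2 h group. With IKK-16 added its share was 22.7%, 24.1% and 27.6%, below every CM + Rux sample and above every CM sample. Id2 held 51.7% to 95.2%, and Id1 never more than 0.895%. These shares were not tested.

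**Figure D3:**
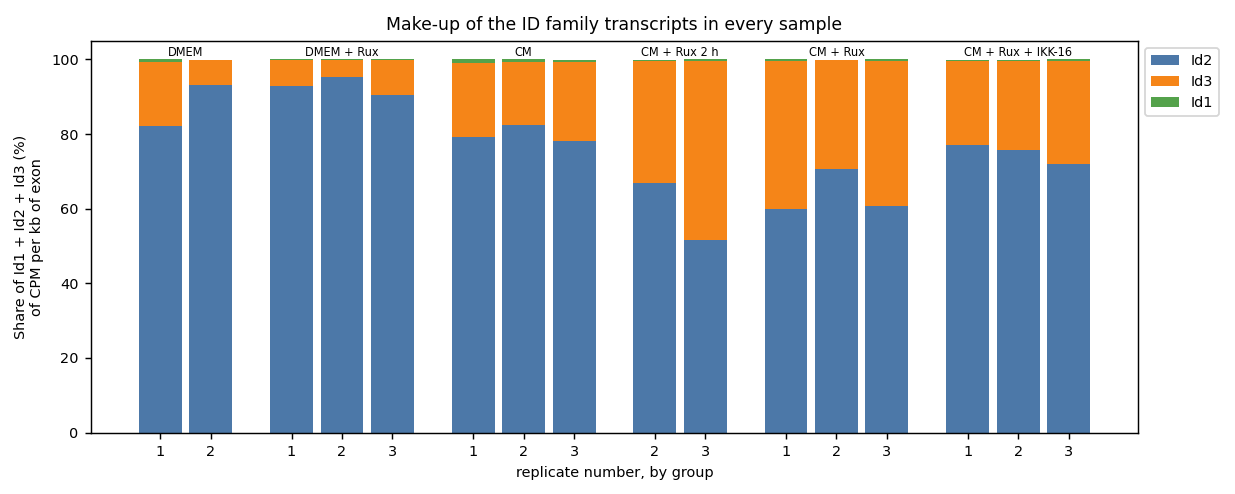
Share of Id1, Id2 and Id3 in their summed CPM per kilobase of exon, in percent, with 1 bar per sample. Id2 is the largest share throughout, and the share of Id3 is 17.0% to 21.0% in CM and 29.2% to 39.7% in CM + Rux.

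Hes1 (ENSMUSG00000022528, chr16:30064384-30067796, plus strand) was above 1 CPM in no sample and failed the filter. Its level was 0.0887 and 0 CPM in DMEM, 0.0924 to 0.201 in DMEM + Rux, 0.334 to 0.489 in CM, 0.387 and 0.584 in the 2 h group, 0.255 to 0.630 in CM + Rux and 0.129 to 0.612 with IKK-16. The counts per sample were 0 to 26. CM held 8.67 times the DMEM level by counts (95% interval 2.73 to 44.1), from 34 and 3 counts. Without the filter on low counts Hes1 passed in CM against DMEM (adjusted p = 0.0042), in the 2 h group (adjusted p = 0.0068) and with both inhibitors (adjusted p = 0.0311), and IKK-16 against CM + Rux did not (adjusted p = 0.74).

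Zeb2 (ENSMUSG00000026872, chr2:44983632-45117395, minus strand) was at a high level everywhere. The lowest sample was 545 CPM, in DMEM + Rux, and the highest 843 CPM, with IKK-16, and every group overlapped the next in the order of means. All CM samples (607 to 675 CPM) still lay below all samples of CM + Rux (693 to 783 CPM), of the 2 h group (720 and 830 CPM) and with IKK-16 (686 to 843 CPM). The log2 fold change was -0.10 in CM against DMEM (95% interval -0.36 to 0.16), 0.15 in the 2 h group (-0.13 to 0.43), 0.17 with both inhibitors (-0.09 to 0.43) and 0.10 for IKK-16 against CM + Rux (-0.14 to 0.33), and none passed the test. The directions in the 2 h group and with both inhibitors depend on the scaling, since RLE scaling raised log2 fold changes by 0.36 and 0.20 there, and by 0.31 for CM against DMEM, over scaling by total counts alone. Zeb1, its close relative, was called higher in CM, at 1.42 and 1.88 CPM in DMEM and 29.7 to 36.9 CPM in CM, a rise of 4.35 on the log2 scale (adjusted p = 2.01e-08).

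**Figure D4:**
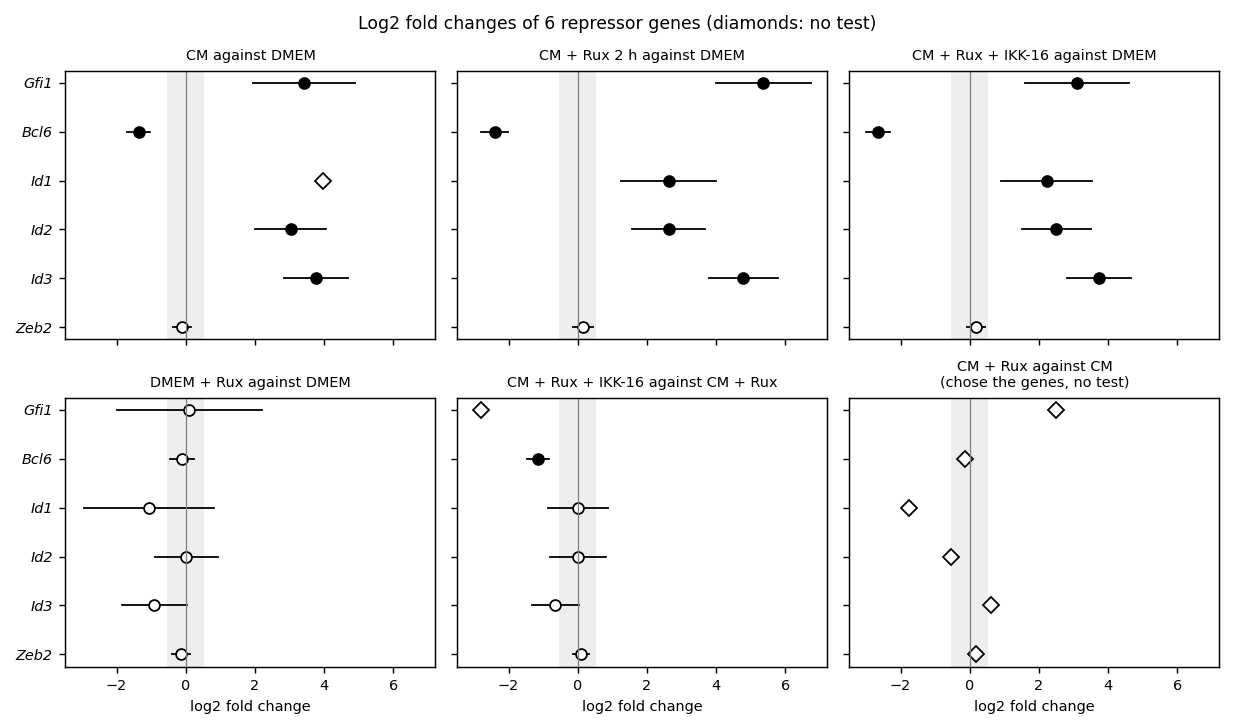
Log2 fold changes of the 6 genes tested in each comparison, with 95% intervals, filled points where a gene was called, open points where it was not, and a grey band from -0.5 to 0.5. Open diamonds without interval mark values that were not tested, in the contrast that chose the genes, for Gfi1 with IKK-16 against CM + Rux and for Id1 in CM against DMEM, and the values of Gfi1 and Id1 against DMEM rest on few counts in DMEM. The points of Gfi1 in the 2 h group and of Id1 with IKK-16 against CM + Rux are descriptions as well, for the limits given in the text.

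Counted together, 4 genes of 6 were called higher and 1 lower in CM relative to DMEM, with the call of Id1 fixed by the filter, where 45% of all genes tested were called (20.9% higher and 24.1% lower). The same counts were found in the 2 h group (37.3% of all genes, 16.8% higher and 20.5% lower) and with both inhibitors (33.3% of all genes, 16.1% higher and 17.2% lower). These 3 comparisons share the DMEM samples, and the CM samples also enter the contrast that chose the genes. Among the groups compared, Gfi1 passed the filter on low counts in the 2 h comparison only through the 2 h samples, so its call there is a description. In DMEM, ruxolitinib gave 0 called genes of 6, with 0 at an unadjusted p under 0.05 and 0 by DESeq2, and of all genes tested 0.97% were called, all of them lower. The nearest was Id3, with a log2 fold change of -0.91 (95% interval -1.84 to 0.03, unadjusted p = 0.0558, adjusted p = 1 with edgeR). For Bcl6 it was -0.11 (-0.45 to 0.24), and for Id2 0.02 (-0.90 to 0.93). Gfi1 and Id1 held 1 to 6 counts in each DMEM + Rux sample, too few for a fold change.

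Genes that act with or on these repressors were taken from 7 hand-written lists, with 126 genes of which 99 were tested. In CM against DMEM, 40 rose and 12 fell (52.5% called, beside 45% of all genes, the share to set beside each list's own for CM against DMEM), and their median log2 fold change was 0.28 beside -0.00496 over all genes. Of 27 corepressors, the partners through which these proteins silence genes, 6 rose and 4 fell (37%), and among those that rose were Rcor2 (2.11) and Tle3 (1.68), a partner of HES proteins. Tle1 fell by 1.82. Bcor, the partner of BCL6, had 23.5 and 43.1 CPM in DMEM, 94.5 to 112 CPM in CM, 107 to 125 CPM in CM + Rux, 371 and 439 CPM in the 2 h group and 64.5 to 70.8 CPM with IKK-16. Its highest level was thus in the 2 h group, where Bcl6 was low, with a log2 fold change of 3.598 against DMEM (adjusted p = 9.29e-08).

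**Figure D5:**
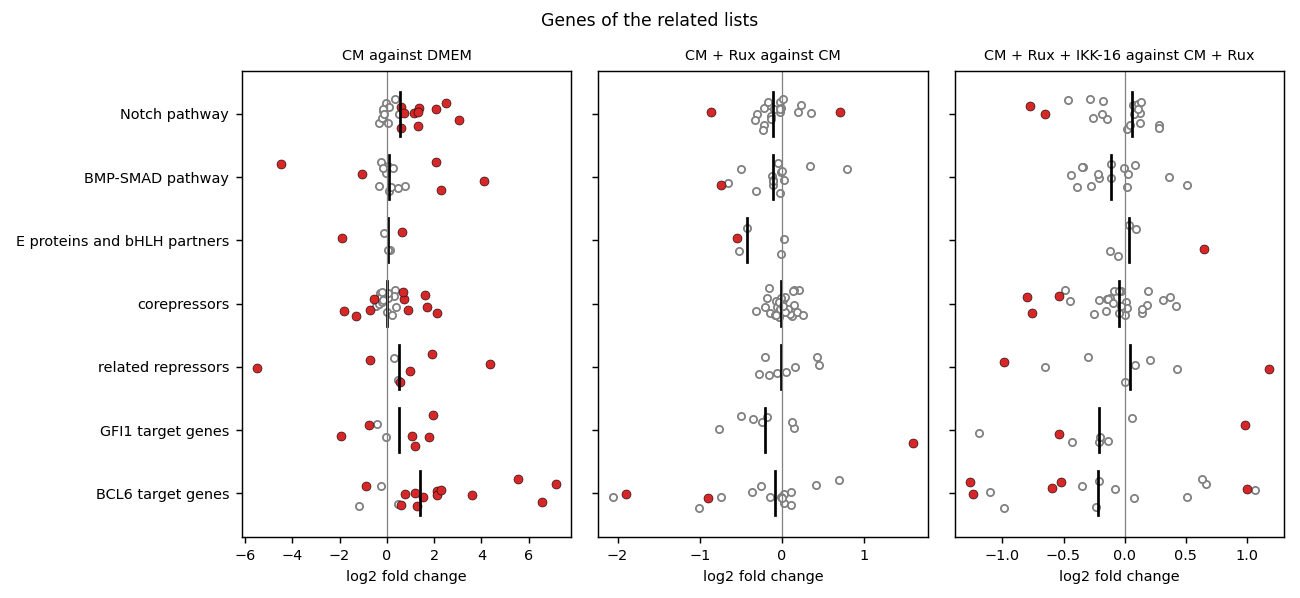
Log2 fold change of each tested gene of the 7 lists in 3 comparisons, with filled red points for genes called and a bar at the list's median. The BCL6 target genes lie mostly to the right in CM against DMEM, and few genes of any list were called for CM + Rux against CM.

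Of the 16 BCL6 target genes, which include chemokines and cell cycle genes that BCL6 is known to repress, 12 rose and 1 fell in CM relative to DMEM (81.2%, beside 45% of all genes). The median log2 fold change was 1.41, beside -0.00496 over all genes. Ccl7 (7.16) and Ccl2 (6.57), chemokines that draw monocytes, had the largest rises, and Bcl2, which blocks cell death, fell by 0.89. With IKK-16 against CM + Rux 4 of the 16 were lower and 1 higher (31.2%, beside 7.74% of all genes), with a median of -0.22 beside -0.00187. Cd69 (-1.27, adjusted p = 0.00952) and Ccl3 (-1.24, adjusted p = 0.000579) were lower, as Bcl6 was, and Bcl2 was higher (1.004, adjusted p = 0.00729). Ccl3 fell from 556 to 625 CPM in CM + Rux to 217 to 269 CPM.

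Of the 10 GFI1 target genes 8 were tested. In CM against DMEM 4 rose and 2 fell (75%, of 8 genes only). Csf1, the growth factor of macrophages, was called higher with ruxolitinib in CM (log2 fold change 1.595, adjusted p = 0.000609), in the same samples in which Gfi1 was high, at 73.2 to 82.8 CPM against 22.0 to 32.5 CPM in CM. The other 7 were not called there. With IKK-16 added, where Gfi1 was low, Csf1 lay 2.96 above DMEM on the log2 scale, beside 1.80 in CM and 3.87 in the 2 h group. Csf1 was not called with IKK-16 against CM + Rux, and a link between Gfi1 and Csf1 was not tested. With IKK-16, Meis1, a homeobox gene of progenitors, was higher (0.99, adjusted p = 0.0415), and Cdkn1a, a cell cycle inhibitor, was lower (-0.54, adjusted p = 0.0465). Elane, the neutrophil elastase gene, did not pass the filter.

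In the Notch pathway 20 of 32 genes were tested. CM raised 10 and lowered 0 (0 also with DESeq2), 50% beside 45% of all genes, while 2, Ncstn (-0.33) and Numb (-0.20), were lower at an unadjusted p under 0.05 by less than the fold threshold. The rises were led by the ligand Jag1 (3.03, adjusted p = 3.1e-09) and the receptor Notch1 (2.51, adjusted p = 1.61e-08). The Notch targets Hes5, Hes7, Hey1, Hey2, Heyl and Nrarp did not pass the filter, like Hes1. IKK-16 lowered Notch1 (-0.65, adjusted p = 0.00332) and Dtx2 (-0.77, adjusted p = 3.25e-05).

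In the BMP and SMAD pathway, upstream of the ID genes, 15 of 22 were tested, 3 rose in CM and 2 fell (33.3%, below the 45% of all genes). The inhibitory Smad6 (4.11) and Smad7 (2.27), which like the ID genes are targets of the pathway, rose, and the ligand Bmp2 fell by 4.49, from 7.54 and 7.82 CPM in DMEM to 0.111 to 0.448 CPM in CM. For IKK-16 against CM + Rux 0 of the 15 were called by edgeR, beside 7.74% of all genes, and 0 by DESeq2, beside 8.68%. Of the 15, 2, Acvr2a (-0.27) and Smad1 (-0.35), were lower at an unadjusted p under 0.05 by less than the fold threshold. Among 5 E proteins and their partners tested, Tal1 rose in CM (0.63) and Lyl1 fell by 1.92. Of the related repressors, 4 of 8 rose and 2 fell, and Zbtb16, a relative of BCL6, fell by 5.51.

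For CM + Rux against CM, 2 genes of the 99 were called higher (Csf1 and Dtx4) and 5 lower (among them Lfng, Eng, Tal1 and Socs2), 7.07% of them beside 3.33% of all genes. With a replicate block the count was 14 (14.1%), where 6.02% of all genes were called. Socs2 had the largest fall, by 1.90, from 9.57 to 14.7 CPM in CM to 1.54 to 4.48 CPM in CM + Rux. In DMEM, ruxolitinib lowered 2 of the 99 (2.02%, beside 0.97% of all genes). Among them was Cxcl10 (-5.81, adjusted p = 0.00237), a target of both BCL6 and interferon signals.

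The genes most like each of the 6 in their pattern were ranked by Pearson correlation of log2(CPM + 0.5) over the 16 samples, which share group differences, so that the values are a description. Gfi1 was most like Lrrk2 (0.964), Cdc37 (0.943) and Acot9 (0.943), and Bcl6 most like Pik3cd (0.956), Agpat2 (0.944) and Phf8 (0.940). Id1 was most like Tpm3 (0.967), Glipr2 (0.965) and Chmp4b (0.958). Id2 followed Sertad3 (0.987), Med7 (0.986) and Ubtd1 (0.983), and Id3 followed Irak2 (0.992), Lpar1 (0.991) and Ehd1 (0.991). Zeb2 had no match of that closeness, with Rps6ka2 (0.847), Clock (0.811) and AC166110.4 (0.802).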

How the data were processed

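The authors prepared stranded TruSeq libraries, used Trimmomatic 0.33 for trimming and HISAT2 2.1.0 for alignment to GRCm38, and counted fragments per gene with featureCounts 1.6.2. The deposited values are whole-number counts of 55487 genes, without scaling or filter. The file headers show strand-specific counting. The table also gives exon length (other unit), as deposited by the authors. Symbols and positions come from GENCODE M21, which gave a symbol for 55141 identifiers and none for 346, in place of the Ensembl 100 annotation. Promoters are RefSeq sequences of GRCm38.p6.

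For scaling, the relative log expression (RLE) method was applied, after keeping genes that passed 1 CPM of total counts in 2 or more samples. All 16 samples and 6 groups entered 1 model in edgeR 4.0.16 (quasi-likelihood test, limma 3.58.1, R 4.3.3), with Benjamini-Hochberg adjustment over 12372 genes. It was tested on simulated data first. Figures were drawn with Python 3.11.15, pandas 2.3.3, numpy 2.4.6 and matplotlib 3.10.9. The alternatives were TMM, no filter on low counts, filterByExpr, a replicate block, only the groups compared, DESeq2 1.42.0, each sample left out in turn and, added after seeing the data, the samples numbered 1 and 3 only. The 7 genes, the lists and the tests were chosen with earlier results of these data known. The text names all 7 genes and, from each list, up to 2 called genes with the largest rise and 2 with the largest fall in a comparison. Some genes of the lists are not reported here.

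Replicates differed beyond counting noise (chi-square per degree of freedom 13.2 to 50.3), so none were copies. Samples with the same replicate number deviated together from their group means in 34 of 35 pairs (r over 0.1), with a median r of 0.363 against -0.124 for other pairs, so the numbers were taken to pair the samples of CM, CM + Rux and CM + Rux + IKK-16.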

Additional observations from a re-analysis of the deposited data

How the results depend on the processing

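Of 328 recomputed values of single genes, 323 kept their side of the threshold, 3 lost the call, 2 gained it and 0 reversed a call. Direction was compared only where a value was called, and some uncalled values changed sign. Id2 for IKK-16 against CM + Rux, for example, was 0.01 and ranged from -0.30 to 0.52. The 3 lost calls were all of Id1, namely both inhibitors against DMEM without DMEM replicate 2 (1.43, adjusted p = 0.0512) and in the samples numbered 1 and 3 only (1.20, adjusted p = 0.139), and the 2 h group against DMEM in the samples numbered 1 and 3 only (1.66, adjusted p = 0.0914). The 2 gained calls were of Id3 for IKK-16 against CM + Rux and stand beside that result. With a replicate block, 5 of the genes were called in CM against DMEM, beside 47.2% of all genes, with the call of Id1 fixed by the filter. For IKK-16 against CM + Rux 2 were called, beside 10.8% of all genes. Of these, Gfi1 had its call fixed by the choice of genes and the filter. For ruxolitinib in DMEM 0 were called, beside 1.25% of all genes. The block moved the count of related genes called for CM + Rux against CM from 7 to 14, beside 3.33% and 6.02% of all genes, and changed no call of the 7 genes. That count was also 14 without the filter on low counts (11.5% of 122 tested, beside 2.8% of all genes). It was 11 in the samples numbered 1 and 3 only (11.1%, beside 3.06% of all genes). When each sample of CM or CM + Rux was left out, it ranged from 4 to 10, beside 1.96% to 3.93% of all genes. It was 4 (4.04%) when either CM replicate 2 or CM + Rux replicate 1 was absent, beside 2.09% and 1.96% of all genes. In a model of only the groups compared, 3 of the genes were called with both inhibitors against DMEM, in place of 5. There 4 passed the filter on low counts, and 32.2% of all genes were called. Where a value moved, the cause was not tested. Low counts limit Gfi1, Id1 and Hes1 in DMEM, where a sample held at most 8 counts of each.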
